A study of Caenorhabditis elegans with 2 samples.

Results

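The genes unc-89, unc-22 and ttn-1 encode the giant muscle proteins obscurin, twitchin and titin of Caenorhabditis elegans. They were chosen by name, with earlier results of these data known, as 3 of 19973 protein-coding genes. Every ChIP-seq region with its summit in the body of one of them, or within 5 kb of it, was taken. This gave 8 of the 910 peaks that passed a threshold on agreement between replicates (the irreproducible discovery rate, or IDR) and 47 of the 30000 regions listed for both replicates together, called pooled regions here. ChIP-seq used an antibody against GFP on whole hermaphrodite larvae of the first stage (L1), which were starved after bleaching and collected 6 hours after synchronization. Both biological replicates came from strain OP154 (unc-119(ed3) III; wgIs154), which stably expresses the zinc finger protein PAG-3 with a GFP-FLAG tag at its C-terminus. They form the 1 group of the series, with 2 samples. No untagged or input sample was analysed here, and the sources used here do not say which cells express the transgene. The lists give no read counts, so the depth behind each region is unknown and no interval for it can be given. In chromatin of whole larvae, strong binding in few cells and weak binding in many cannot be told apart, and no expression values were at hand to check muscle markers.

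Muscle contracts through thin filaments of actin that slide along thick filaments of myosin. In nematode body wall muscle, thick filaments are held together at the M-line, where UNC-89 (obscurin) is found and is needed for their orderly packing. UNC-22 (twitchin) lies along the thick filament outside the M-line, and worms that lack it twitch constantly. TTN-1 is a titin-like protein of the same family. All of them are built from chains of immunoglobulin and fibronectin repeats and carry protein kinase domains near the C-terminus, and each gene produces several isoforms. PAG-3, the C. elegans member of the Gfi1 family of zinc finger proteins, is known as a regulator of neuron fate.

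Both unc-89 and unc-22 carried 4 thresholded peaks, while ttn-1, the longest of these genes, carried none. Signal here means the height that the deposited lists give for a region, whose scale no source names, and rank 1 is the highest in a list. The peaks of unc-89 had signals of 50.7, 166, 532 and 57.3 in order from the 5' end, at ranks 622, 52, 7 and 480. Those of unc-22 had signals of 126, 245, 92.9 and 76.3 in the same order, at ranks 92, 31, 164 and 245. The highest region at ttn-1 had a signal of 39.5 and ranked 1152, outside the thresholded set, whose last member had a signal of 43.4 (rank 910). Of all protein-coding genes, 10.2% had a thresholded summit in the body or within 5 kb. The share was larger among long genes. Of the 24 genes at least as long as unc-22, which include all 3 genes described here, 10 had such a summit (41.7%), and 4 summits were the most that any of them had. Only unc-89 and unc-22 among these 24 reached that number. This depended on the 5 kb flank: in the gene body alone, unc-89, unc-22 and kin-1 had 3 summits each.

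**Figure D1:**
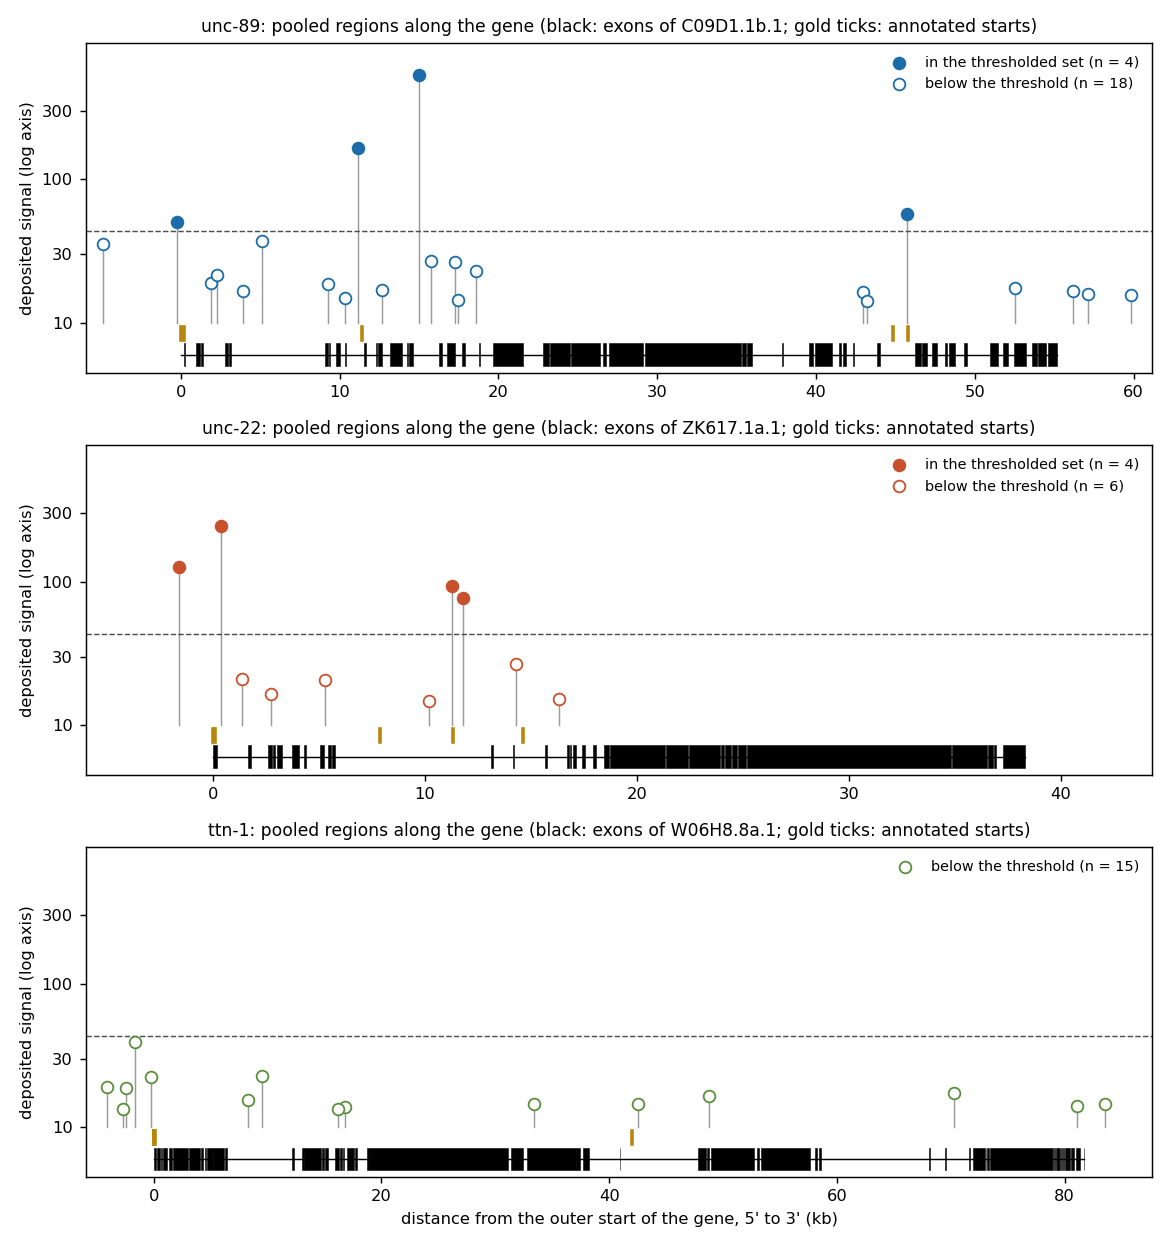
Signal of each pooled region (log axis) against its distance in kb from the outer start of unc-89, unc-22 and ttn-1, drawn 5' to 3', with exons in black and annotated transcript starts in gold. Filled points are thresholded peaks (4, 4 and 0) and open points lie below the threshold (18, 6 and 15), whose signal of 43.4 is the dashed line; the highest points stand 15.003 kb into unc-89 and 0.386 kb into unc-22.

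The thresholded summits were dense over these loci, although pooled regions were not. Together the 3 genes with their flanks span 205.2 kb, or 0.205% of the nuclear genome, and held 0.879% of the thresholded peaks. That is 0.390 thresholded summits per 10 kb, against 0.0908 over the nuclear genome, a ratio of 4.30. The genes were chosen with earlier results of these data known, so this ratio is a description and no independent evidence. By gene the density was 0.614 per 10 kb at unc-89, 0.828 at unc-22 and 0 at ttn-1, where a count of 0 allows up to 0.327 per 10 kb (3 counts, covering counting error only). At the density of the whole genome, 0.832 summits would be found over the 91.7 kb of ttn-1 and its flanks, so a count of 0 does not set ttn-1 apart. Pooled regions, which by their description include background, stood at 2.29 per 10 kb against 2.99 in the genome. They numbered 3.38 per 10 kb at unc-89, 2.07 at unc-22 and 1.64 at ttn-1.

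The unc-89 gene (WBGene00006820) lies on the plus strand of chromosome I from 4035702 to 4090885 on ce11 (WBcel235) and is the 6th longest protein-coding gene. Ensembl lists 16 transcripts with 5 distinct starts, and the longest product has 8081 residues. A first start lies at 4035702 and a second, used by 8 transcripts, at 4035893. The third, at 4047136, opens 5 transcripts that lack the 5' part of the gene. The last starts, at 4080539 and 4081507, open 1 short transcript each, which hold only its 3' part.

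Of the 4 unc-89 peaks, 3 had their summits just upstream of an annotated start. The summit at 4035488 lay 214 bp upstream of the first start and 405 bp upstream of the second, and was the only thresholded one in the promoter of any of these genes, taken as the 1000 bp before the outer gene start and the 200 bp after it; 2.56% of all protein-coding genes had one there. The summit at 4046845 lay 291 bp upstream of the third start, inside intron 9 of the longest transcript. The summit at 4081417 lay 90 bp upstream of the last start, 878 bp downstream of the one before it and inside intron 35, the second longest intron of the gene with 2219 bp. The fourth and highest summit, at 4050705, was near no start. It lay in intron 15 (1646 bp), 3569 bp downstream of the third start, 15003 and 14812 bp downstream of the first ones and 29834 and 30802 bp upstream of the last ones.

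The replicates ranked the main unc-89 peaks alike. The peak at 4050705 had a signal of 404 (rank 5) in replicate 1 and 129 (rank 6) in replicate 2, and its width of 198 bp was below the 340 bp that 97.9% of thresholded peaks share. The peak at 4046845 had 118 (rank 56) and 60.2 (rank 36). The peak at 4035488 had 31.4 (rank 895) and 18.6 (rank 656), so it sat close to rank 910 in replicate 1. The peak at 4081417 stood high in replicate 1 only, with a signal of 48.0 (rank 353). In replicate 2 the matching region had a signal of 6.995 and ranked 22298 of 30000. Signals of different lists are on scales that may differ, so only their ranks are set side by side.

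Below the threshold, unc-89 had 18 pooled regions with signals from 14.3 to 37.5 and a median of 17.2. The highest, at 4040830 in the longest intron of the gene (intron 5, 5927 bp), ranked 857 in replicate 2 and had no match in replicate 1. The next, at 4030780, had a signal of 35.5. It lay 847 bp downstream of the nearest transcript start of unc-73, a neighbour on the minus strand that encodes a guanine nucleotide exchange factor. Another, at 4051436 in intron 15 with a signal of 26.8, stood beside the highest peak of the gene. From 18.6 to 42.9 kb into unc-89, a stretch that is 66.4% exon, no pooled region was listed. The nested lectin gene clec-89, on the other strand, lies in that stretch. With each summit given to the nearest outer gene start, the thresholded summit at 4081417 fell to clec-89 at a distance of 8289 bp, although the unc-89 start at 90 bp is far nearer.

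The unc-22 gene (WBGene00006759) lies on the minus strand of chromosome IV from 11972697 to 12011007 and ranks 24 by length. Its 9 transcripts have 5 distinct starts, and the longest product has 7158 residues. One summit, at 12010621, lay in intron 1, 386 bp downstream of the outer start (12011007) and 259 bp downstream of the start at 12010880 that 5 transcripts use. A pair of summits 509 bp apart, at 11999706 and 11999197, lay in intron 10, which at 7393 bp is the longest of the gene. They flanked the start of a shorter transcript at 11999670, 36 bp upstream of it and 473 bp downstream of it. The remaining summit, at 12012609, lay 1602 bp upstream of the outer start. The protein-coding start nearest to it, at 811 bp, belongs to a neighbouring gene. The annotated starts at 12003102 and 11996375 had no thresholded summit within 500 bp. The nearest ones lay 3396 and 2822 bp from them.

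The 101 bases centred on each unc-22 summit are shown from the RefSeq genome (WBcel235) on the minus strand of chromosome IV, that of the gene, because they let the peaks be compared base by base. Capitals mark matches on either strand to any of the short words searched. On the strand shown, the word GAGAGA appears as its reverse complement. So does GACGCA.
upstream, chrIV:12012559-12012659: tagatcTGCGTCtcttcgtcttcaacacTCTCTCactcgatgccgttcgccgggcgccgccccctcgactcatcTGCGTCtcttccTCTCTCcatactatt
intron 1, chrIV:12010571-12010671: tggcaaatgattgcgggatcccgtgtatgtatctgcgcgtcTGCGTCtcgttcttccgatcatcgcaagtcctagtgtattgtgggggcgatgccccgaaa
intron 10, first, chrIV:11999656-11999756: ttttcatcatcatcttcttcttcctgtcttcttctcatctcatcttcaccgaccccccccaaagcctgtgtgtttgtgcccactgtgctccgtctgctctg
intron 10, second, chrIV:11999147-11999247: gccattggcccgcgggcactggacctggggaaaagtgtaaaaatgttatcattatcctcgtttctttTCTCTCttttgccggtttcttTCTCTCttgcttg

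The replicates ranked 3 of the 4 unc-22 peaks near each other. The intron 1 peak had a signal of 176 (rank 36) in replicate 1 and 68.3 (rank 27) in replicate 2. The upstream peak had 99.0 (rank 81) and 35.5 (rank 106), with replicate summits 12 and 60 bp from the pooled one. The first peak of intron 10 had 71.3 (rank 157) and 25.97 (rank 221). Its neighbour at 11999197 had 62.0 (rank 205) in replicate 1 but 16.0 (rank 1190) in replicate 2, outside the 910 highest regions there. The order of the signals was thus the same in the pooled list and in both replicates.

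Below the threshold, unc-22 had 6 pooled regions with signals from 14.8 to 26.7. The highest, at 11996724 in intron 12, lay 349 bp upstream of the last annotated start. Its matches were low, at rank 14823 in replicate 1 and 4246 in replicate 2. The next, at 12009648 in intron 1 with a signal of 20.9, had no match in either replicate list. The one after it, at 12005726 in intron 8, had a signal of 20.7 and lay 57 bp upstream of the start of a nested tRNA gene. From 16.3 kb into the gene to its end, 22.0 kb of which 89.03% is exon, no pooled region was listed.

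Several small genes lie in and around unc-22, and summits fell on some of them. Ensembl lists 19 non-coding RNAs (ncRNAs) in the gene or within 5 kb, 17 of them nested in it. The upstream summit lay within ZK617.8 and ZK617.18, which overlap on opposite strands. The intron 1 summit lay within ZK617.23 and 21 bp upstream of ZK617.11 on the other strand. The summit at 11999197 lay within ZK617.15, 6 bp from its start. No role is known here for these transcripts. Of the 8 thresholded summits, 3 were inside an annotated ncRNA, against 7.36% of all thresholded summits and 1.78% of all pooled ones. These 3 were all at unc-22, so they are not independent of each other.

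The ttn-1 gene (WBGene00006436) lies on the minus strand of chromosome V from 6120909 to 6202632. By length it ranks 3 among protein-coding genes, with 15 transcripts, a product of up to 15188 residues and 59 exons in its widest transcript. Of its 5 annotated starts, 4 lie within 99 bp of each other at the outer end, and the fifth, at 6160654, opens 4 shorter transcripts. Its 15 pooled regions had signals from 13.4 to 39.5 with a median of 15.5. The highest, with its summit at 6204263, lay 1631 bp upstream of the outer start. It had a signal of 35.3 in replicate 1, where it ranked 713, and of 9.96 in replicate 2, where it ranked 8045. Replicate 1 alone therefore placed it within its 910 highest regions.

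That region lay within the ncRNA W06H8.10, about as far upstream as the unc-22 peak that also lay in ncRNAs. It is shown in the same way, on the minus strand of chromosome V. It is set beside the upstream unc-22 sequence because both held GAGAGA and GACGCA. Here GAGAGA again appears as its reverse complement, but GACGCA reads as itself, opposite to its direction at unc-22. Both words were picked in earlier work on the same data. They do not single out this region, since a lower ttn-1 region at 6206753 (signal 19.0, rank 10710) also held both.
ttn-1 upstream, chrV:6204213-6204313: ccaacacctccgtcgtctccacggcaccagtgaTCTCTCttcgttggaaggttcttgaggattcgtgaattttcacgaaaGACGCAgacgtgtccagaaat

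The next regions of ttn-1 were low. One at 6193086, in intron 12 of the widest transcript and in a coding exon of others, had a signal of 22.6, ranked 3514 in replicate 1 and had no match in replicate 2. One at 6202852, 220 bp upstream of the outer start, had a signal of 22.5, ranked 1644 in replicate 1 and also had no match in replicate 2. No pooled region lay in the longest intron (intron 38, 9498 bp), which holds most of exp-2, a potassium channel gene on the other strand. A region with a signal of 17.4 lay 968 bp downstream of the exp-2 start.

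Across these loci, the thresholded peaks were nearer to starts than the regions below the threshold. Of the 8 peaks, 6 had a summit within 500 bp of a protein-coding transcript start, with a median distance of 275 bp. Among all thresholded peaks 44.3% did, with a median of 747 bp, and among all pooled regions 28.8%. Of the 39 regions of these loci below the threshold, 3 lay within 500 bp and the median was 1685 bp. By place in the annotated transcripts, 6 of the 8 summits lay in introns and 2 outside the genes. None lay in a coding exon of any of them, whereas 10 of the 39 lower regions did (7 by the widest transcript of each gene). Of all protein-coding genes, 1.30% had a thresholded summit in the gene body. These shares are descriptions without a test, and genes with many transcripts offer more starts.

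**Figure D2:**
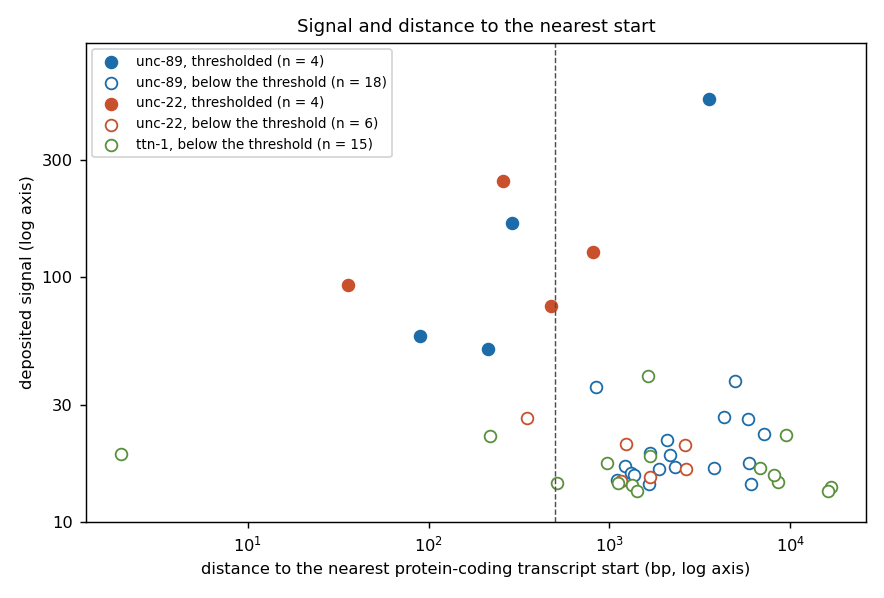
Signal of the 47 pooled regions (log axis) against the distance in bp of each summit to the nearest protein-coding transcript start (log axis), by gene, with thresholded peaks filled. Of the 8 filled points, 6 lie left of the dashed line at 500 bp, and the highest point, in unc-89, lies at 3569 bp.

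The base composition differed in the same direction. In the 101 bases around the summit, the median GC content was 51.5% for the 8 peaks (43.6 to 59.4%), 43.6% for all thresholded peaks, 36.6% for the 39 lower regions of these loci and 34.7% for all pooled regions. The part of base composition in the heights was not tested.

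Of the sequences searched within 50 bp of the summits, on either strand, GACGCA was found at 4 of the 8 peaks, 2 at each gene, against 11.98% of all thresholded peaks and 2.68% of all pooled regions. GAGAGA was found at 3 of 8 (28.8% and 7.78%), among them the highest unc-89 peak. ATGGCA was found at 2 of 8, both at unc-89 (15.2% and 3.81%), and in one of these it lay over the summit itself. These 3 words and CACGTG were picked in earlier work on the same data, so their presence at members is no independent evidence. AATCAC, the core of the site of vertebrate Gfi1, was found at 0 of 8 (5.05% and 5.58%). The E-box CAGCTG, which MyoD factors bind, was at 0 of 8 (5.16% and 2.08%), and CACGTG at 0 of 8 (5.71% and 2.09%). No match says only that these letters are not in this window.

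Both replicates listed every one of the 8 peaks. All 8 had a summit within 100 bp in both replicate lists, against 82.5% of the 910. In 6 of 8 the match ranked within the 910 highest regions of both replicates, against 39.2% of the 910. The thresholded set was itself called on both replicates together and was identical to the 910 highest pooled regions, and 6 of these 8 peaks ranked in its higher part, so these shares are descriptions. Of the 910 highest regions of replicate 1, 9 lay at these genes, and 8 of them matched a thresholded peak. Of those of replicate 2, 8 lay there and 6 matched. The unmatched one of replicate 1 was the ttn-1 region whose pooled summit lay at 6204263. Those of replicate 2 were unc-89 regions with replicate summits at 4054260 and 4040830, with ranks of 784 and 857.

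**Figure D3:**
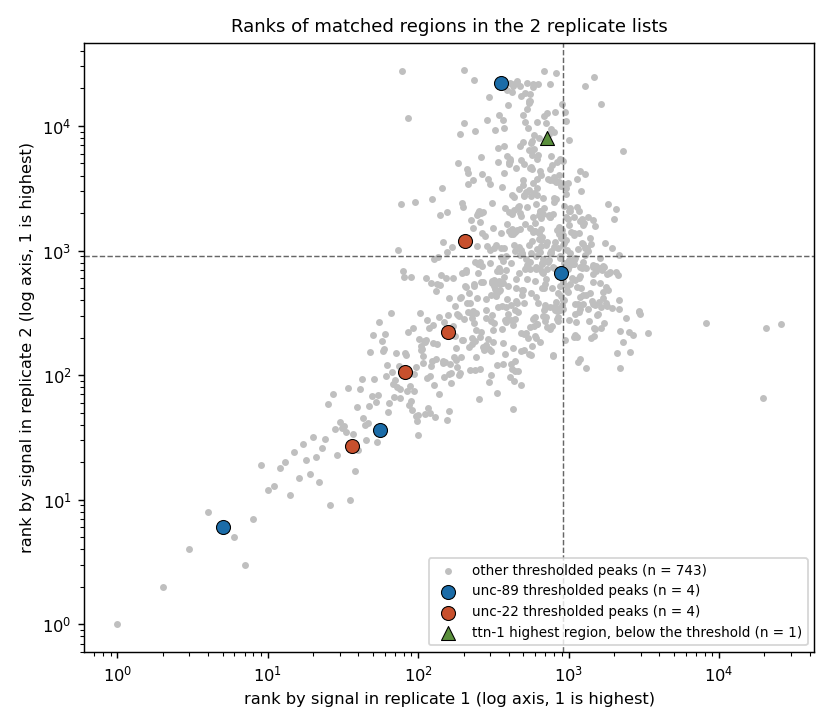
Rank by signal in replicate 1 against rank in replicate 2 (log axes, 1 is highest) for 751 thresholded peaks matched in both lists, with unc-89 and unc-22 in colour, and for the highest ttn-1 region (triangle). The dashed lines mark rank 910: 6 of the 8 coloured circles lie inside both, while one unc-89 peak ranks 22298 and one unc-22 peak 1190 in replicate 2.

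Few protein-coding genes held as many thresholded summits in their bodies as unc-89 and unc-22, with 3 each in 55.2 and 38.3 kb. There were 9 genes with 3 or more among 19973. Beside unc-89 and unc-22, the 5 named here had the most, with ties at 3 ordered by the highest signal, so that 2 further genes with 3 summits are left out. The 5 were hlh-30 (9 summits in 20.2 kb, highest signal 135), which encodes a transcription factor of the TFEB family, ppfr-1 (4, highest 64.0), F46H5.3 (3, highest 661), kin-1 (3, highest 80.2), which encodes the catalytic subunit of protein kinase A, and daf-5 (3, highest 70.04). The lengths of ppfr-1, F46H5.3, kin-1 and daf-5 were 25.9, 7.96, 38.5 and 19.1 kb. The highest body signal of unc-89 (532) was above those of hlh-30, ppfr-1, kin-1 and daf-5, and below that of F46H5.3.

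**Figure D4:**
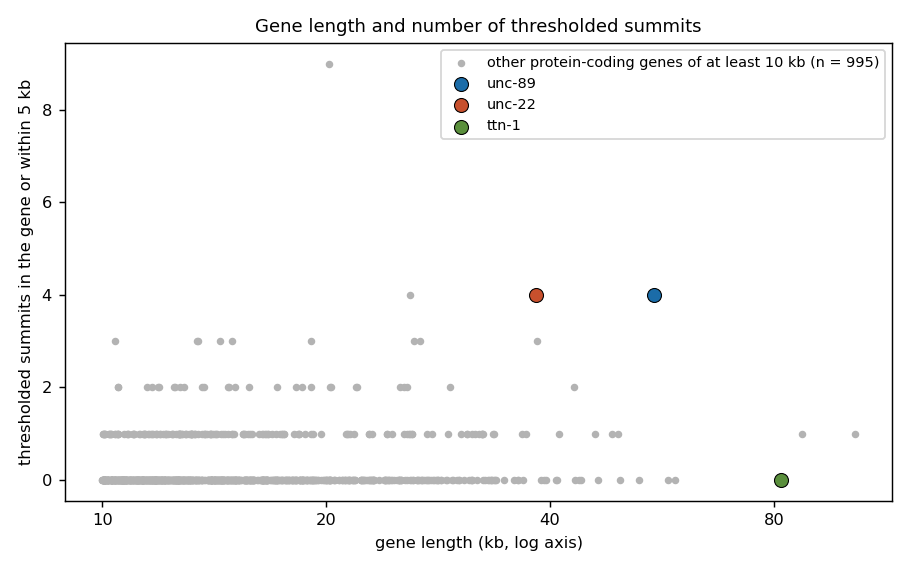
Number of thresholded summits in the body or within 5 kb against gene length in kb (log axis) for protein-coding genes of at least 10 kb. The coloured points are unc-89 and unc-22, with 4 summits each, and ttn-1, with 0; the highest grey point is hlh-30, with 9.

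Other muscle genes were set beside these by 3 lists, chosen with earlier results of the data known. Among 7 muscle proteins with immunoglobulin domains, 5 had a thresholded summit in the body or within 5 kb. Without the 3 genes described here it was 3 of 4. Among all protein-coding genes the share was 10.2%, and among the 24 at least as long as unc-22 it was 41.7%. Beside unc-89 and unc-22, the list genes with a summit were ketn-1 (kettin; highest signal 92.1), dim-1 (54.02) and unc-52 (perlecan of the muscle basement membrane; 43.8, rank 891). The ketn-1 summit lay outside the gene body, the dim-1 peak had no match in replicate 2, and him-4 (hemicentin) had no region above 25.2. The median of the highest pooled signal was 54.02 in this list and 22.6 over the 18973 genes with any pooled region, but 39.3 over the 24 genes at least as long as unc-22. Long genes thus had higher maxima.

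Of 15 genes of the M-line and of obscurin partners, 9 had a thresholded summit, against 10.2% of all protein-coding genes. Without unc-89 it was 8 of 14. The median of the highest pooled signal was 47.8 in this list and 22.6 over all genes with a pooled region. The highest after unc-89 were at unc-112 (kindlin; 377), unc-97 (a LIM domain protein of attachments; 144), unc-95 (71.8) and pat-3 (beta-integrin; 68.5). The others were lim-8 (56.8), unc-98 (54.5), scpl-1 (47.8) and unc-52. The lim-8 summit lay outside both the gene body and the promoter, and also within 5 kb of dig-1, a gene outside this list. The highest scpl-1 peak had no match in replicate 2. Of the rest, lim-9, cpna-1 and mel-26 stayed below the threshold (25.1, 21.1 and 36.3), as did unc-96 and pat-6 (21.9 and 20.7). The protein kinase gene unc-82 missed it narrowly, with a signal of 43.0 at rank 932.

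Of 13 thick filament genes, 7 had a thresholded summit, against the same 10.2% of all protein-coding genes. Without unc-22 it was 6 of 12. The median of the highest pooled signal was 87.5, against 22.6 over all genes with a pooled region. Beside unc-22 these were unc-54 (myosin heavy chain B; highest signal 391), unc-15 (paramyosin; 305), mlc-3 (263), mlc-2 (238) and mlc-1 (208), which encode myosin light chains, and myo-3 (myosin heavy chain A; 87.5). The highest unc-22 peak (245) stood between those of mlc-3 and mlc-2. The pharyngeal myosin genes myo-1 and myo-2, the non-muscle myosin gene nmy-1 and the chaperone gene unc-45 had none, with highest signals from 17.8 to 22.2. Neither had unc-82 nor mak-1 (34.3), which encodes a kinase of the MAPKAP family. Neighbouring genes can share a summit within 5 kb, as mlc-1 and mlc-2 can.

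**Figure D5:**
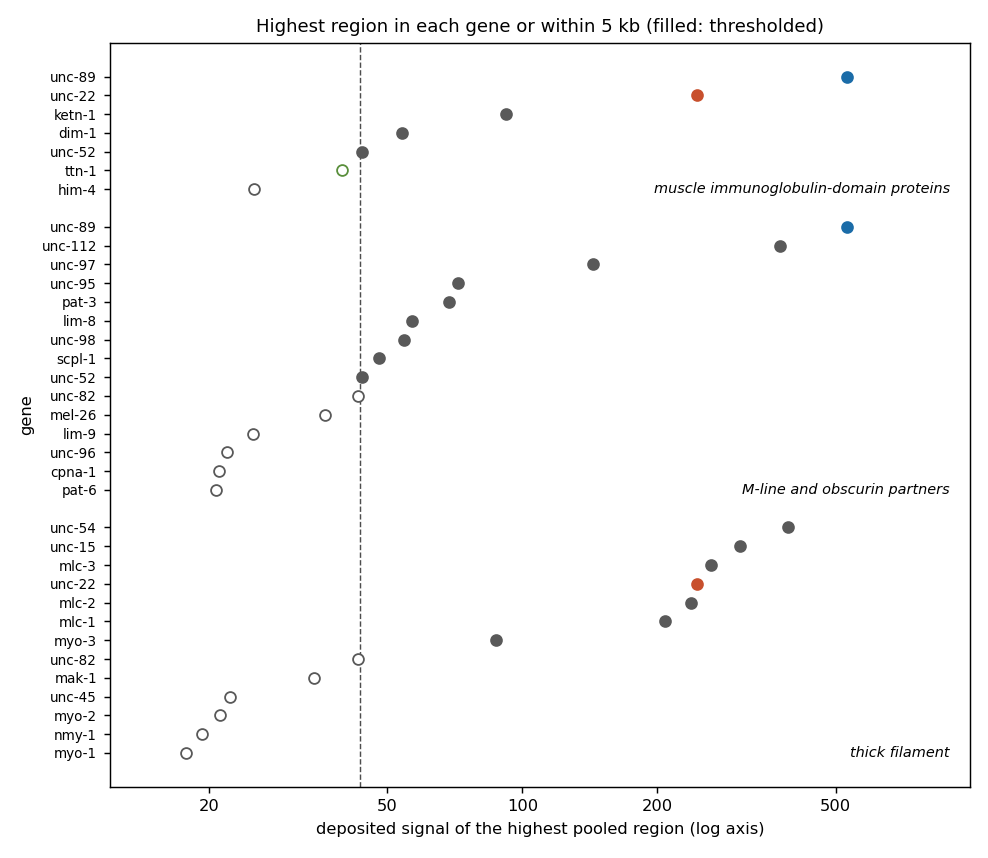
Signal of the highest pooled region in the body or within 5 kb of each gene of the 3 lists (log axis), filled where a thresholded summit was there; unc-89, unc-22 and ttn-1 are in colour and the dashed line is the signal of the last thresholded peak, 43.4. Filled genes number 5 of 7, 9 of 15 and 7 of 13, and ttn-1 lies just left of the line at 39.5.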

How the data were processed

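Regions came from 4 deposited ce11 lists. Per the file headers and descriptions deposited with them, the authors listed 30000 regions (peaks and background) for each replicate and for both together, each against 1 control file, and derived from them a set of 910 peaks thresholded by IDR. Which aligner and caller they ran is not given in the sources used here. Regions were ranked by the deposited signal within each list, and signal levels of different lists were never set against each other. Each region's deposited summit offset gave each summit, counted from 1. Lists on ce10 were not used, since no annotation of that build was at hand. No column lacked a sample or group.

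Genes came from Ensembl release 115 and sequence from RefSeq, both WBcel235; all regions lay within its 6 nuclear chromosomes. Replicate regions were matched by summits within 100 bp. The members and lists were chosen with earlier results of these data known, so no test was made: counts stand beside the share of all genes or peaks. The text names every thresholded peak of the rule, genes nearest to them, the 3 highest lower regions per gene, all list members and the 5 other genes with the most summits in the body. Regions, neighbours and genes outside this rule were named after their values were seen. Replicates are separate biological samples per the labels. Sequence from chromosome I and 1 gene near a peak are not reported here. Counting and matching were checked on simulated summits. Python 3.11.15, pandas 2.3.3 and numpy 2.4.6 were used.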

Additional observations from a re-analysis of the deposited data

How the results depend on the processing

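With 1 replicate left out, the 910 highest regions of the other replicate's list were counted, without a new IDR threshold. The unc-89 count of 4 thresholded peaks fell to 2 with only the higher-signal part of the set (455 peaks), and ranged from 4 to 5 with 1 replicate left out. The unc-22 count of 4 was 4 with that part of the set and ranged from 3 to 4 with 1 replicate left out. The ttn-1 count of 0 ranged from 0 to 1: without replicate 2, the region at 6204263 entered. Flanks of 0, 2 and 10 kb gave 3 or 4 peaks at unc-89 and at unc-22 and 0 at ttn-1. The density ratio of 4.30 ranged from 3.75 to 6.44 over all settings. With each summit given to the nearest outer start, 3 of 8 went to these genes, against 7 with starts of every transcript, because 3 unc-22 summits then went to ZK617.26, an annotated gene of 39 bp, and 1 to clec-89. Windows of 25 and 100 bp around the summit gave 1 and 4 peaks with ATGGCA. They gave 1 and 4 peaks with GACGCA, where the main window of 50 bp on each side gave 4. For GAGAGA the counts were 3 and 6. The other words searched stayed at 0. Shares of all regions are given here for the main window only, so the counts of the other windows have no background beside them. With the promoter window, the immunoglobulin, M-line and thick filament lists had 1, 6 and 4 genes with a peak, against 2.56% of all protein-coding genes. With the gene body alone they had 4, 4 and 5, against 1.30%. The lists hold 7, 15 and 13 genes. Matches in both replicates were 6 of 8 with summits within 50 bp, and matches in the highest regions were 5 with 455 regions and 7 with 1820. No paired analysis was possible because there is 1 group. Depth is unknown, so a region that was not listed is not shown to be unbound.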
